A study of Mus musculus with 9 samples.

Results

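The mitochondrial ribosomal protein genes were taken from a raw count table as every gene whose symbol is Mrpl or Mrps followed by a number and at most 1 letter, with 10 or more counts in at least 3 of the 9 libraries. The table lists 56860 genes, 78 of them had such a symbol and 77 met the count rule. The table holds polyA RNA-seq of CD8+ T cells that were sorted by flow cytometry from B16 melanoma grown in mice. The sample labels name the tumor B16-OVA and the design text names B16F10. All mice were wild type (WT) and had no treatment, and no animal number, age or sex is given here. The sort combined staining for sialic acid in the α2,6 linkage (Sia2,6), a sugar at the end of cell surface glycans, with the checkpoint receptor PD-1. It gave 3 groups with 3 libraries each: Sia2,6-high PD-1- cells (SiaHi_PD1neg), Sia2,6-high PD-1+ cells (SiaHi_PD1pos) and Sia2,6-low PD-1+ cells (SiaLo_PD1pos). The design text gives the purpose of the sort as a check of links between this sugar and the state of CD8+ T cells. Nothing in the labels says that libraries of a group came from separate mice, so p-values measure spread among these libraries alone, and that spread may be technical.

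Mitochondria keep a small genome of their own, and its mRNAs, which code for subunits of the respiratory chain and the ATP synthase, are translated by a ribosome that is distinct from the one in the cytosol. The proteins of this mitochondrial ribosome are coded in the nucleus, made in the cytosol and imported, and they assemble with mitochondrial rRNA into a large and a small subunit. Many have a counterpart in the bacterial ribosome and carry its number with the prefix u or b (uL4m, bS6m), and the others, with the prefix m, are specific to mitochondria. In T cells, mitochondrial translation is known to be needed for proliferation and for sustained effector function.

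Of the 77 members, 50 code for proteins of the large subunit and 26 for proteins of the small subunit. Mrps30 (protein mL65) and Mrps18a (mL66) carry small-subunit names and sit in the large subunit. Mrps36 belongs to neither subunit, since its protein is a component of the 2-oxoglutarate dehydrogenase complex of the citrate cycle. A bacterial counterpart exists for 46 members and 31 are specific to mitochondria. The members lie on 17 chromosomes, with 11 of them on chromosome 11. The lowest count of any member in any library was 54, for Mrpl1 in SiaHi_PD1neg replicate 3, and the gene left outside the rule, Mrpl53, had 0 counts in all 9 libraries. Of the 790 exon bases of Mrpl53, 695 lie within the model Gm42688 on the same strand. Another gene model shared exon bases with 32 members, 7 of them on the same strand, and the sources used here do not say that counting used the strand, so reads of such pairs cannot be told apart there.

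The libraries differed in more than the sort. Total counts ran from 9714020 to 15030442. Levels are given as CPM, a gene's reads relative to the library's total, scaled by the trimmed mean of M-values (TMM). The 10 core T cell genes together reached 1610 to 1753 CPM in SiaHi_PD1neg, against 5645 to 7316 in SiaHi_PD1pos and 6370 to 7166 in SiaLo_PD1pos, with no gene of the list at 0 in any library. For 17 dendritic cell markers, also with none at 0, the sum was 20420 to 23210 CPM for the SiaHi_PD1neg libraries, 3269 to 5758 for SiaHi_PD1pos and 2186 to 2607 for SiaLo_PD1pos. The 14 melanoma markers summed to 4586 to 9645, 1002 to 1158 and 1931 to 3880 CPM in the same order, with 1 of them at 0 in 2 SiaHi_PD1neg libraries. The SiaHi_PD1neg libraries therefore go against their label of CD8+ T cells by these markers, and both comparisons with that group below set T cell-rich libraries against libraries rich in other cell types. In bulk samples such as these, fewer cells of a type and less RNA per cell cannot be told apart.

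A single library also stood apart among the PD-1+ cells. In SiaHi_PD1pos replicate 2 all 77 members were above their own mean over the 9 libraries, and 70 members had their highest value there. That library also read short mRNAs more than long ones: the median of genes that are no members, as log2 against their own mean, was 0.24 for mRNAs under 1 kb and -0.32 for mRNAs over 4 kb. Among members this median was 0.56 under 1 kb, 0.47 from 1 to 2 kb and 0.56 from 2 to 4 kb. It was 0.45 for the 3 members over 4 kb, and the part of length was not tested. Genes of the cytosolic ribosome had a median of 0.71 there on the same scale. SiaHi_PD1neg replicate 3 had the lowest value of 40 members. Results that rest on these libraries are given with and without them.

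**Figure D1:**
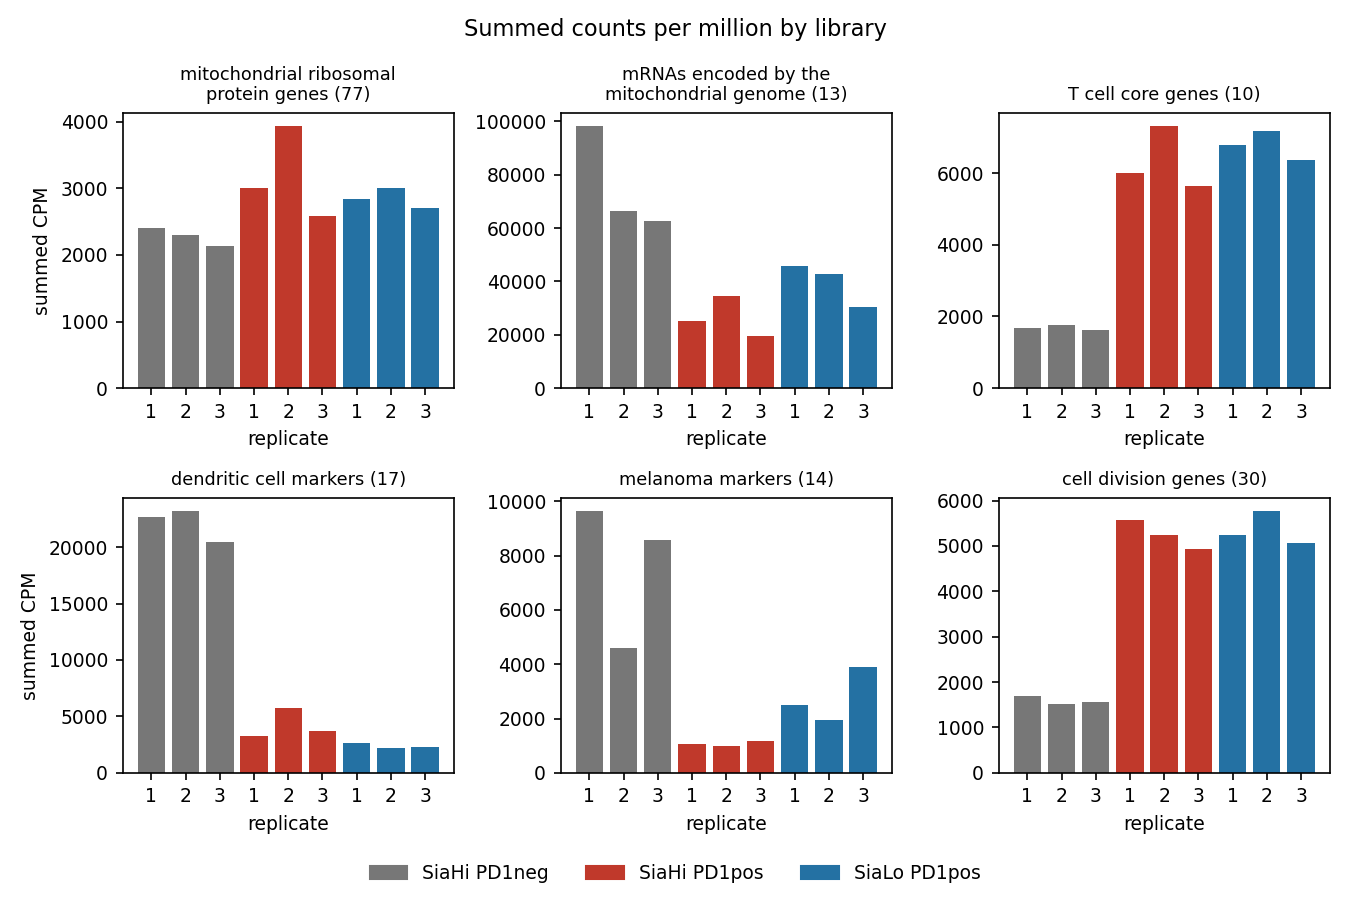
Summed CPM (y axis) by library, grouped by color and numbered by replicate (x axis), for the members and for 5 other lists; each bar is 1 library. Members summed to 2141 to 2405 CPM in SiaHi_PD1neg libraries, and PD-1+ libraries ranged from 2592 to 3937, while T cell core genes, dendritic cell markers, melanoma markers, cell division genes and mRNAs of the mitochondrial genome separated SiaHi_PD1neg from both PD-1+ groups by larger ratios.

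The promoters of these genes are known for matches to NRF1, to the ETS factor GABP and to YY1, transcription factors of genes for mitochondrial proteins. A RefSeq promoter (GRCm38.p6, 250 bases before to 50 after the start) was found for 68 members. Both strands were searched. TGCGCA, the core of the NRF1 motif, was in 30.9% of these members' promoters and in 14% of the promoters of the 10925 tested genes that have one in the same table. CCGGAAG, an ETS motif, was in 35.3% and 17.7%, and AAGATGGC, a YY1 motif, in 17.6% and 4.54%. At least 1 of these 3 was in 61.8% of the members' promoters and in 31.6% of those of tested genes. CACGTG, the E-box that MYC binds, was in 7.35% and 9.93%, and TATAAA in 5.88% and 7.8%. A match is a description of the letters and not evidence of binding.

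Promoter windows run from 150 bases before the start to 30 after it. They are printed for 4 of the members that were called higher in both PD-1+ groups against SiaHi_PD1neg, with and without each library. These 4 were picked because they show the 3 motifs in place. Of the other members with such calls, Mrpl40 had no match to the 3 motifs. The ETS motif of Mrpl18 began 240 bases before its start, outside the window. No promoter was found for Mrpl4 and Mrpl15. Capitals mark the match.
Mrpl9, chr3:94443186-94443365, plus strand: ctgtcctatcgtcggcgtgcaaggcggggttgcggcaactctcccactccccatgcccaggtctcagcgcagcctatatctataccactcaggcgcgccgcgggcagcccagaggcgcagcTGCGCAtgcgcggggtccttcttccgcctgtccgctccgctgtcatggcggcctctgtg
Mrps6, chr16:92058186-92058365, plus strand: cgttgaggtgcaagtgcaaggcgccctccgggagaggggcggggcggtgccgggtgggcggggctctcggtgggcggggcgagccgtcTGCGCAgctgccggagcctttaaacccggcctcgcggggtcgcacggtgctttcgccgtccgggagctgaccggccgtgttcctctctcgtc
Mrpl33, chr5:31613801-31613980, plus strand: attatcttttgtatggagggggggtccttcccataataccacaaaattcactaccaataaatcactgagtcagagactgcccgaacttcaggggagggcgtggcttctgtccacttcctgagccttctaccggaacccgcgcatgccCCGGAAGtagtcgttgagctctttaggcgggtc
Mrpl49, chr19:6057726-6057905, minus strand: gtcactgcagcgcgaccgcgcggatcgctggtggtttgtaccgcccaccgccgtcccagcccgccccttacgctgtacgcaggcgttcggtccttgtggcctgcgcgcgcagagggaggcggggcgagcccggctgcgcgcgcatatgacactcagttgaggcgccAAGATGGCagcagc

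The NRF1 core began 29 bases before the start of Mrpl9 and 62 bases before that of Mrps6. The ETS motif began 3 bases before the start of Mrpl33, and the YY1 motif began at base 17 of the transcript of Mrpl49. The start of Mrps6 lies 14 bases from that of Slc5a3, a myo-inositol transporter gene on the same strand, so the printed window also covers the start of that gene. The NRF1 core was in 34.6% of the promoters of members called higher in SiaHi_PD1pos and in 28.6% of those of the other members, with 26 and 42 promoters. The ETS motif was in 30.8% and 38.1%, and the YY1 motif in 26.9% and 11.9%; these shares were not tested.

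**Figure D2:**
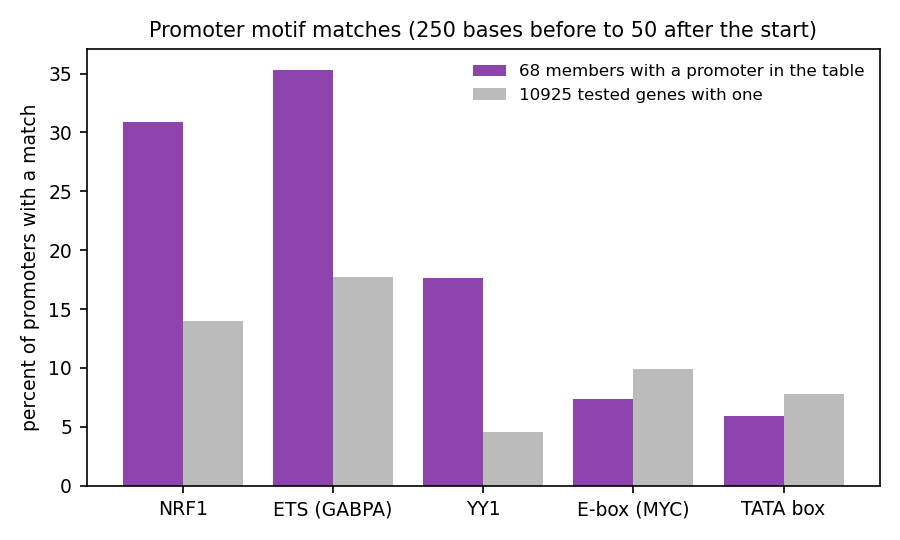
Percent of promoters (y axis) with at least 1 match to each motif (x axis, named by factor), for 68 members (purple) and 10925 tested genes (grey) with a promoter in the table. The bars of the members are above those of tested genes for NRF1, ETS and YY1 and below for the E-box and the TATA box.

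Members differed widely in level. Over the 9 libraries and per kilobase of exon in the deposited table, mean CPM was highest for Mrps21 (75.5), Mrps23 (47.2), Mrpl54, Mrpl12 and Mrpl52, and lowest for Mrps35 (3.14), Mrpl47 (3.38), Mrps10, Mrps30 and Mrps25 (4.09). bS21m, the product of Mrps21, is a small-subunit protein with a bacterial counterpart, and bL12m, that of Mrpl12, forms the flexible stalk that recruits translation factors. The exon length of the table joins all transcripts of a gene, with a median over members of 2533 bases, and it exceeds the mRNA where rare long transcripts are annotated. A second length was the median over a gene's protein-coding transcripts in GENCODE vM21, with a median over members of 1056 bases. Per kilobase of this mRNA length, Mrps21 (138 CPM per kb) was again the highest and Mrps25 (4.43) became the lowest. Most exon bases of Mrps25 are shared with another gene model, so its level is uncertain. Mrps35 moved from rank 77 to rank 65, Mrps10 from rank 75 to rank 41 and Mrpl33 from rank 57 to rank 2 (7.53 and 116 CPM per kb). The order of levels between members therefore depends on the length used.

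**Figure D3:**
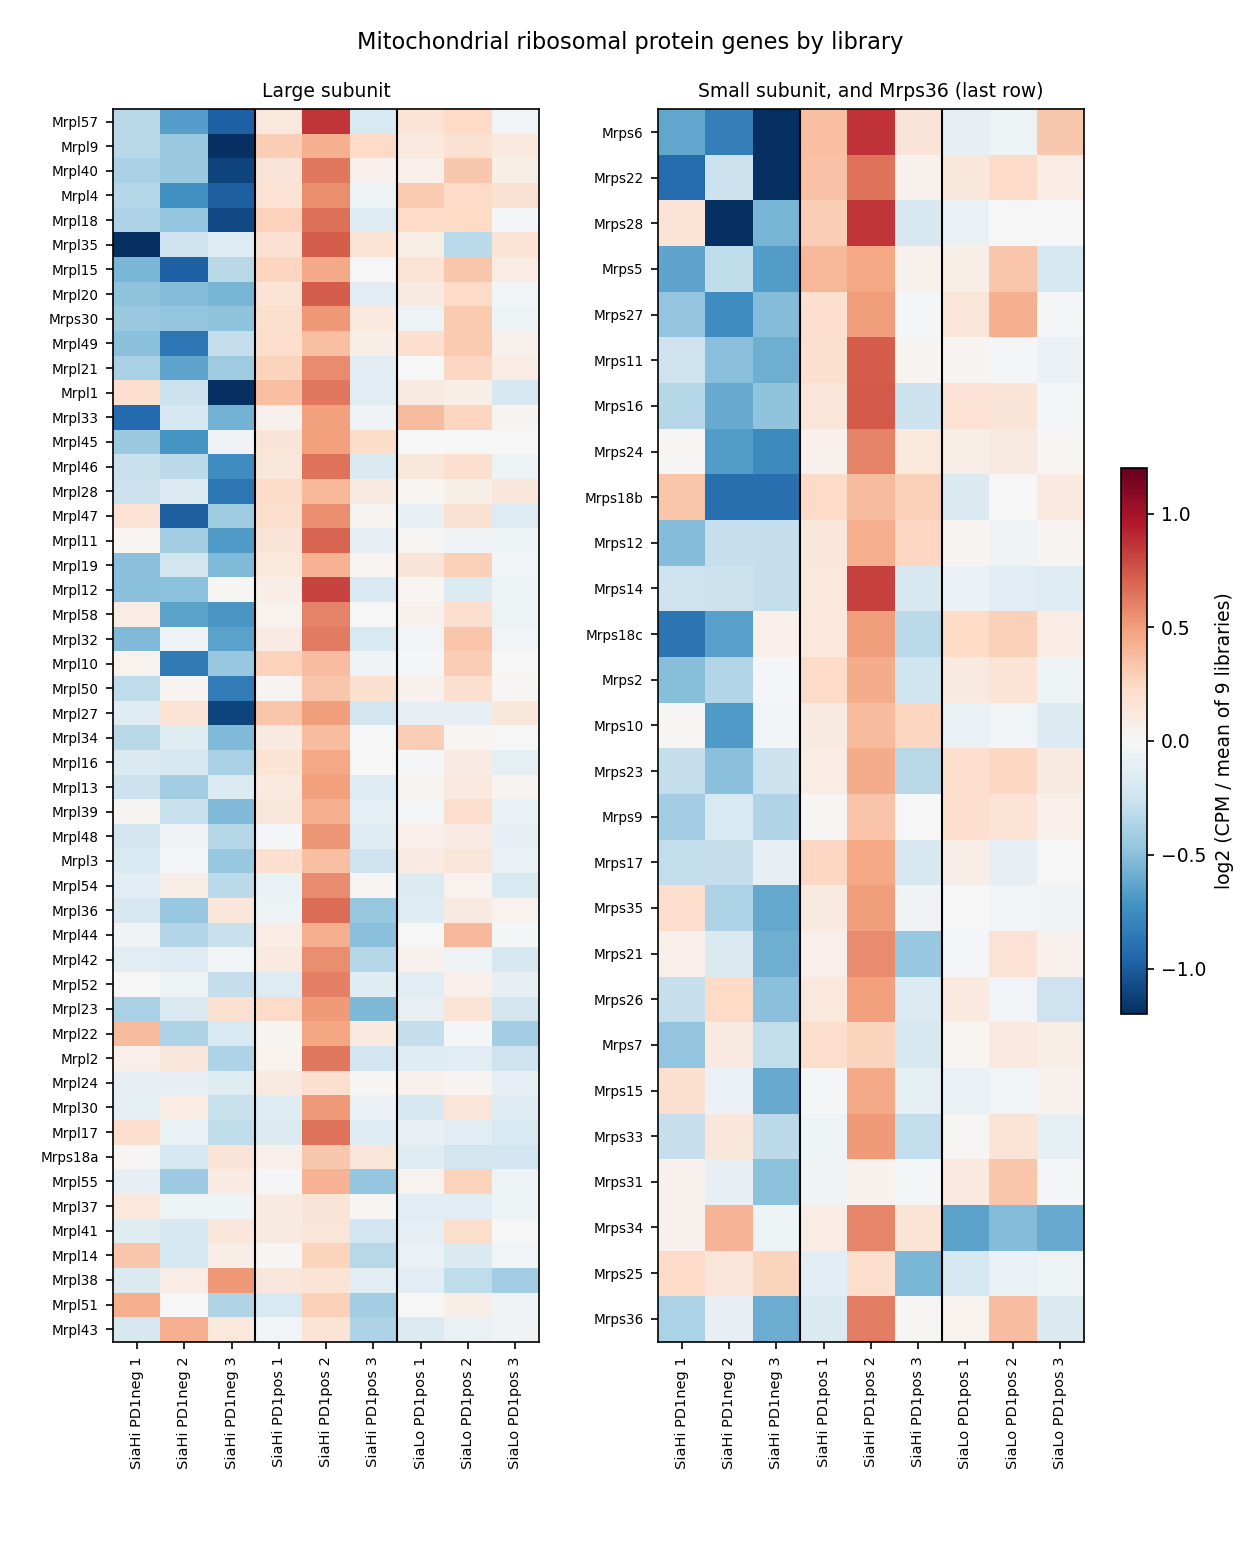
Log2 of CPM divided by the mean over 9 libraries (color, with the scale ending at 1.2 either way) for 77 members (rows, ordered within each panel by the fold change of SiaHi_PD1pos against SiaHi_PD1neg) in each library (columns). SiaHi_PD1pos replicate 2 is red in every row, SiaHi_PD1neg is blue in most rows of the upper part of each panel, and Mrps34 is blue in all 3 SiaLo_PD1pos libraries.

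The comparison of SiaHi_PD1pos with SiaHi_PD1neg sets PD-1+ against PD-1- cells at a high level of the sugar. On the TMM scale 30 members rose, none fell and 47 did not pass the threshold, an adjusted p of 0.05 in edgeR's quasi-likelihood test with Benjamini-Hochberg adjustment over all 15292 tested genes. The called share was 39%, against 21% of all tested genes called higher and 19.2% called lower. At an unadjusted p of 0.05 the counts were 41 higher and 0 lower. DESeq2 and limma-voom called 27 and 23 higher and 0 lower, against 21.4% and 20.8% of all tested genes called higher. The median log2 fold change of the members was 0.49 (a fold of 1.41), against 0.02 over all tested genes, and 72 of 77 members had a positive value. Every SiaHi_PD1pos library was above every SiaHi_PD1neg library for 31 members (40.3%, against 24.1% of all tested genes), and below every one for 0 (against 23.5%).

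The direction depended on the scale. When libraries were scaled to the 10 core T cell genes, 0 members were called higher and 76 lower in this comparison. On that scale 1.86% of all tested genes were called higher and 80.5% lower. The member median was -1.41 and the all-gene median -1.87, so that members still lay 0.45 above the median gene. Dendritic, melanoma and fibroblast and endothelial markers fell with the members' rise (16 of 17, 13 of 14 and 8 of 8 called lower on the TMM scale), and all 10 T cell core genes and all 30 cell division genes rose. The part of these in the result was not tested. Without SiaHi_PD1pos replicate 2 the count fell to 17 members, so the members' called share came near the 20% of all tested genes called higher there. The median fell to 0.33, against 0.003 over all tested genes. Of the 30 calls, 17 held without each library in turn.

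In the large subunit 20 of 50 members rose (40%, against 21% of all tested genes called higher). Mrpl9 codes for bL9m, a protein with a bacterial counterpart. It stood at 50.4, 46.8 and 27.1 CPM in SiaHi_PD1neg, 78.2, 85.4 and 75.1 in SiaHi_PD1pos and 69.1, 72.1 and 69.0 in SiaLo_PD1pos. Values in SiaHi_PD1neg were below those of all 6 other libraries, and its log2 fold change in SiaHi_PD1pos was 0.94 ± 0.20 (SE, n = 3 per group, edgeR adjusted p = 0.00186).

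Mrpl4 codes for uL4m, which lines the tunnel through which the new protein leaves the ribosome. It stood at 46.0, 35.3 and 29.5 CPM in SiaHi_PD1neg, 66.1, 85.96 and 55.95 in SiaHi_PD1pos and 72.8, 68.4 and 66.3 in SiaLo_PD1pos. No library of SiaHi_PD1neg reached a PD-1+ library, and the log2 fold change was 0.91 ± 0.19 (edgeR adjusted p = 0.0021). Mrpl15, for uL15m, was at 36.7, 27.2 and 42.5 CPM in SiaHi_PD1neg and at 64.1, 73.5 and 53.5 in SiaHi_PD1pos, without overlap (log2 0.85 ± 0.18, edgeR adjusted p = 0.00248).

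Mrpl18 codes for uL18m, of the central protuberance, the crest of the large subunit. It stood at 37.0, 34.6 and 22.5 CPM in SiaHi_PD1neg and at 57.9, 75.5 and 42.8 in SiaHi_PD1pos (log2 0.90 ± 0.23, edgeR adjusted p = 0.00616). Among proteins specific to mitochondria, Mrpl40 (mL40) stood at 32.4, 31.1 and 19.6 CPM in SiaHi_PD1neg and at 47.4, 65.8 and 44.1 in SiaHi_PD1pos. Mrpl57 (mL63) stood at 25.5, 20.3 and 16.3 against 35.2, 58.3 and 28.3. Groups did not overlap for any of these 3 genes, and the log2 fold change was 0.92 for Mrpl40 and 0.97 for Mrpl57 (edgeR adjusted p = 0.00417 and 0.00896).

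Mrpl35, for bL35m, was at 8.60, 19.2 and 20.5 CPM in SiaHi_PD1neg and at 25.9, 37.9 and 25.6 in SiaHi_PD1pos. The SiaHi_PD1neg library of replicate 1 lay far below the other 2. Its log2 fold change was 0.89 ± 0.30 (edgeR adjusted p = 0.0315), and the call was lost without SiaHi_PD1pos replicate 2 or without SiaHi_PD1neg replicate 1, with an adjusted p of up to 0.115. The other called members of the large subunit had log2 fold changes from 0.455 (Mrpl13) to 0.82 (Mrpl20). They included Mrpl10, whose product carries the stalk, and Mrpl45, whose product ties the ribosome to the inner membrane.

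In the small subunit 10 of 26 members rose (38.5%, against 21% of all tested genes called higher). The largest fold change of all members was that of Mrps6, for bS6m, a protein of the platform. It stood at 13.04, 11.3 and 8.54 CPM in SiaHi_PD1neg, 25.8, 36.7 and 22.4 in SiaHi_PD1pos and 18.8, 19.4 and 25.3 in SiaLo_PD1pos. All PD-1+ libraries were above all PD-1- libraries, with a log2 fold change of 1.36 ± 0.25, or 2.57-fold, in SiaHi_PD1pos (edgeR adjusted p = 0.000859). Slc5a3, which shares 159 of the 1533 exon bases of Mrps6 on the same strand, also rose in SiaHi_PD1pos, from 17.6 to 57.7 mean CPM (log2 1.72). Within SiaHi_PD1pos the 2 genes ran differently, with Slc5a3 lowest in replicate 2 (27.9, against 57.6 and 87.6 CPM), where Mrps6 was highest. Replicate 2 also read short mRNAs more than long ones. The exon models of Slc5a3 and Mrps6 have 10913 and 1533 bases, and the mRNA length of Mrps6 is 846. The part of length in this contrast was not tested.

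Mrps22 codes for mS22, a mitochondria-specific protein that is mutated in human mitochondrial disease. It stood at 9.40, 14.9 and 7.46 CPM in SiaHi_PD1neg and at 22.7, 27.9 and 18.4 in SiaHi_PD1pos, without overlap (log2 1.11 ± 0.27, edgeR adjusted p = 0.00529). Mrps12, for uS12m of the decoding center, was called as well (log2 0.64), as was Mrps27, for a pentatricopeptide repeat protein (log2 0.82). Mrps11 and Mrpl46, a pair of neighbors that share 173 exon bases on opposite strands, both rose, by 0.78 and 0.67 on the log2 scale. Mrps36, the member outside the ribosome, had a log2 fold change of 0.53 (edgeR adjusted p = 0.0975).

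By origin, 22 of the 46 members with a bacterial counterpart rose (47.8%), with a median log2 fold change of 0.58. Of the 31 that are specific to mitochondria, 8 rose (25.8%), with a median of 0.35. Among all tested genes 21% were called higher, so the share of mitochondria-specific members was near the background. The difference between the shares of these classes was not tested. Among the 45 members that share no exon base with another gene model, 16 rose (35.6%) and none fell.

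**Figure D4:**
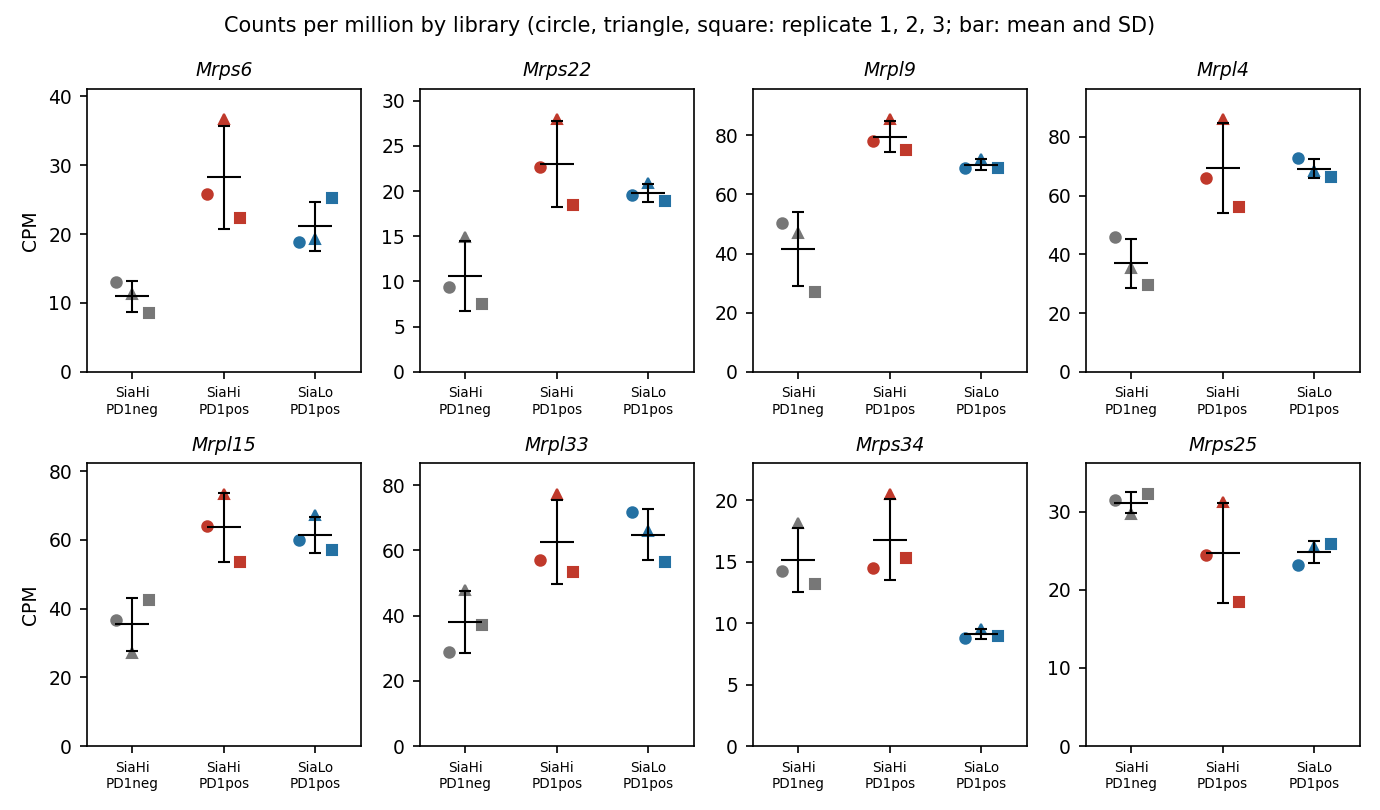
CPM (y axes, from 0) of 8 members in each library by group (x axes); circles, triangles and squares are replicates 1, 2 and 3, and the black bar gives the mean and SD of 3 libraries. The first 6 genes are lower in all SiaHi_PD1neg libraries than in all PD-1+ libraries on this TMM scale, and their fold changes were negative when scaled to T cell core genes; Mrps34 is lower in the 3 SiaLo_PD1pos libraries than in the 6 others.

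Only 5 members had a negative log2 fold change in SiaHi_PD1pos on the TMM scale, and none of these passed the test. The lowest was Mrps25, for mS25, at 31.5, 29.7 and 32.3 CPM in SiaHi_PD1neg and at 24.5, 31.2 and 18.4 in SiaHi_PD1pos. The groups overlapped, and the log2 fold change was -0.34 ± 0.20 (edgeR adjusted p = 0.215). Counts of Mrps25 are uncertain, since its model shares 4590 of 6576 exon bases with Nr2c2 on the opposite strand. Mrpl43 and Mrpl51 followed at -0.21 and -0.13. The exons of Mrpl43 overlap those of Twnk, the mitochondrial DNA helicase, on the opposite strand.

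The paralogues Mrps18a, Mrps18b and Mrps18c descend from 1 bacterial gene, and their products occupy 3 different sites in the ribosome. None of them was called by edgeR's test of all 9 libraries on the TMM scale in any comparison. Against SiaHi_PD1neg, the settings tried otherwise called Mrps18c higher in 4 of 21 cases in SiaHi_PD1pos and in 7 of 21, limma-voom among them, in SiaLo_PD1pos. Mrps18b was called higher in both PD-1+ groups without SiaHi_PD1neg replicate 1, and scaling to T cell core genes called all 3 lower. Mrps18c, for bS18m, stood at 14.1, 16.6 and 27.0 CPM in SiaHi_PD1neg, 28.3, 36.8 and 20.8 in SiaHi_PD1pos and 30.5, 31.6 and 27.6 in SiaLo_PD1pos. Mrps18b, for mS40, was at 15.5, 6.56 and 6.58, then 14.4, 15.98 and 15.03, then 10.9, 12.4 and 13.3 CPM, with SiaHi_PD1neg replicate 1 apart from the other 2. Mrps18a was at 26.2, 22.5 and 28.9, then 27.0, 32.4 and 28.6, then 23.5, 22.2 and 22.1 CPM, and its 3 groups lay close together.

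The comparison of SiaLo_PD1pos with SiaHi_PD1neg changes both stains at once and uses the same SiaHi_PD1neg libraries as the comparison above. On the TMM scale 19 members rose, 1 fell and 57 did not pass. The called shares were 24.7% higher and 1.3% lower, against 20.5% and 18.9% of all tested genes, so the share called higher was near the background and the share called lower was below it. The median log2 fold change of members was 0.34, against 0.01 over all tested genes. All SiaLo_PD1pos libraries were above all SiaHi_PD1neg libraries for 34 members (44.2%, against 29.3% of all tested genes) and below them for 3 (3.9%, against 25.1%). Scaled to T cell core genes, 0 members were called higher and 77 lower, against 1.84% and 81.9% of all tested genes. The medians on that scale were -1.67 for members and -1.99 for all tested genes. The marker lists moved here as well, with 17 of 17 dendritic and 13 of 14 melanoma markers called lower and 10 of 10 T cell core genes called higher. The remaining melanoma marker was called higher (log2 3.17). The part of these lists was not tested.

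Of the 19 members called higher, 12 belonged to the large and 7 to the small subunit. These are 24% and 26.9% of the members of each subunit, near the 20.5% of all tested genes called higher. Mrps6 again had the highest value (log2 0.94 ± 0.25, edgeR adjusted p = 0.00981), followed by Mrpl4 (0.90 ± 0.19, adjusted p = 0.00218) and Mrps22 (0.90 ± 0.27, adjusted p = 0.0185). Mrpl33, for bL33m, a protein near the exit site for tRNA, stood at 28.9, 48.0 and 37.2 CPM in SiaHi_PD1neg, 57.1, 77.5 and 53.5 in SiaHi_PD1pos and 72.0, 66.0 and 56.6 in SiaLo_PD1pos. Its 3 lowest libraries were those of SiaHi_PD1neg (log2 0.77 ± 0.20, edgeR adjusted p = 0.00872). Mrpl15 (0.80), Mrps27 (0.77), Mrpl40 (0.77) and Mrpl57 (0.76) completed the 8 largest.

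Mrps23, for mS23, was called here and not in SiaHi_PD1pos against the same libraries. It stood at 60.3, 52.1 and 61.5 CPM in SiaHi_PD1neg, 78.5, 100.4 and 58.5 in SiaHi_PD1pos and 84.5, 87.3 and 79.5 in SiaLo_PD1pos. Its SiaHi_PD1pos libraries spread widely and overlapped SiaHi_PD1neg, and those of SiaLo_PD1pos did not (log2 0.53 ± 0.18, edgeR adjusted p = 0.0293). The lists of calls from the 2 comparisons shared 18 members, which are 18 of 30 and 18 of 19, and the comparisons share their control libraries. Only 8 of the calls held without each library in turn, namely Mrpl4, Mrpl9, Mrpl15, Mrpl18, Mrpl33, Mrpl40, Mrpl49 and Mrps6. The count of members called higher was 8 without SiaLo_PD1pos replicate 2 and 10 without SiaLo_PD1pos replicate 1. In these fits 15.4% and 14.9% of all tested genes were called higher.

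The member that fell was Mrps34, for mS34, a mitochondria-specific protein whose loss destabilizes the small subunit in human disease. It stood at 14.2, 18.1 and 13.2 CPM in SiaHi_PD1neg, 14.5, 20.6 and 15.3 in SiaHi_PD1pos and 8.79, 9.53 and 8.995 in SiaLo_PD1pos. All 3 SiaLo_PD1pos libraries were below all 6 others, with a spread of 0.386 CPM (SD) around their mean of 9.10. Against SiaHi_PD1neg the log2 fold change was -0.74 ± 0.25 (edgeR adjusted p = 0.0299), a 1.67-fold decrease, and the call was lost without SiaHi_PD1neg replicate 2, without SiaHi_PD1pos replicate 1 or without any 1 of the SiaLo_PD1pos replicates (adjusted p from 0.0524 to 0.12). The other 4 omissions kept it (adjusted p from 0.0295 to 0.042).

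Counts of Mrps34 are uncertain because of its neighbors. Its model shares 763 of 2064 exon bases with Nme3 on the same strand, listed at 0 in all libraries, and 1309 with Mapk8ip3 on the opposite strand. Mapk8ip3 had mean CPM of 87.9 ± 12.2, 76.4 ± 18.7 and 78.4 ± 2.99 (SD, n = 3) in SiaHi_PD1neg, SiaHi_PD1pos and SiaLo_PD1pos. It did not pass in any comparison. Of the other members with a negative value, those with the smallest p were Mrpl38 (log2 -0.45 ± 0.20, edgeR adjusted p = 0.0931), Mrps25 (-0.33) and Mrps18a (-0.19), and none of them passed.

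**Figure D5:**
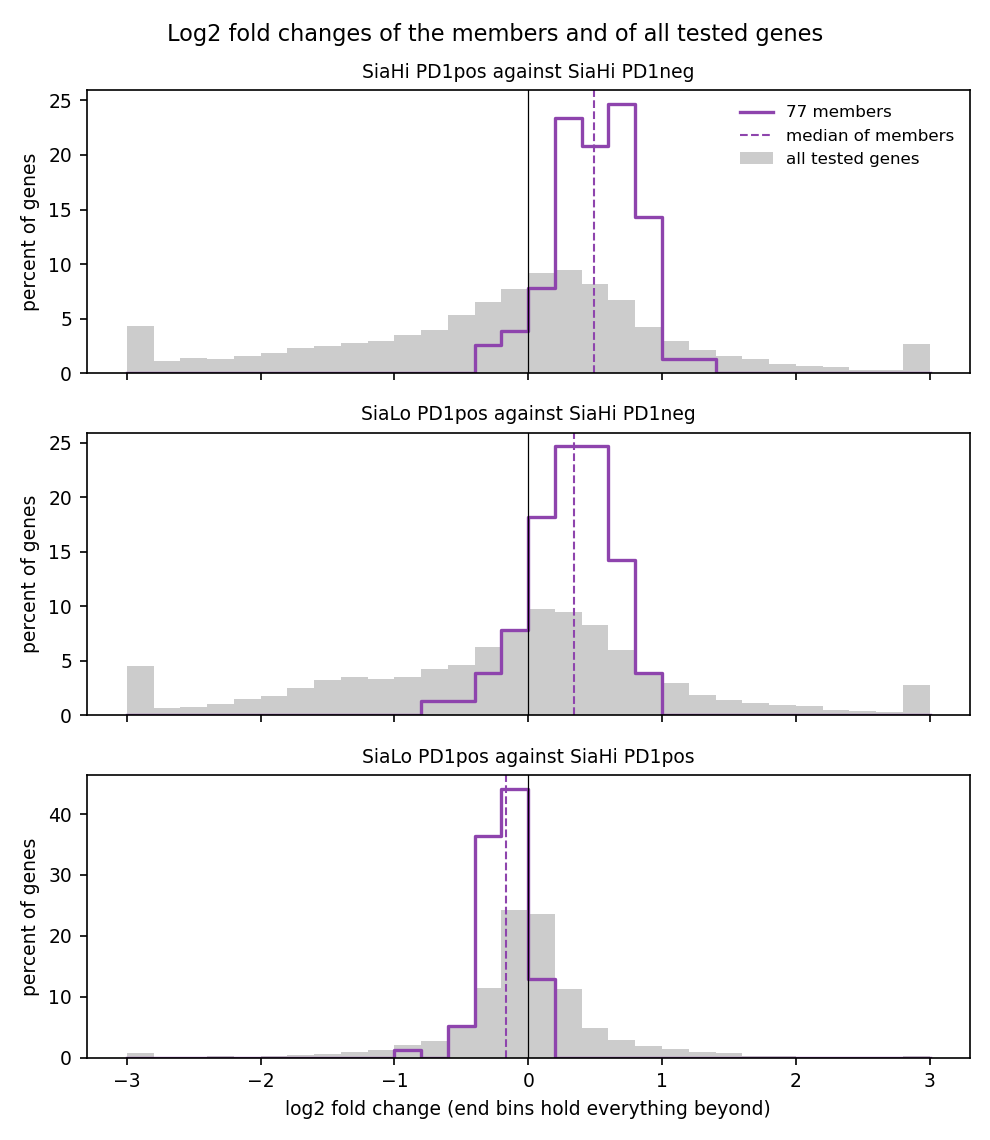
Share of genes (y axis, percent) by log2 fold change (x axis, TMM scale) in 3 comparisons, for all tested genes (grey bars) and for 77 members (purple line), with the median of the members dashed. The members' medians of 0.49 and 0.34 against SiaHi_PD1neg turned negative when scaled to T cell core genes, and the median of -0.17 between the PD-1+ groups turned to 0.07 without SiaHi_PD1pos replicate 2.

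The comparison of SiaLo_PD1pos with SiaHi_PD1pos asks about the sugar among PD-1+ cells. The SiaHi_PD1neg libraries are not a group in it, but they enter the shared estimate of spread. No member passed edgeR's quasi-likelihood test in either direction, against 0.268% of all tested genes called higher and 1.13% called lower. At an unadjusted p of 0.05 the counts were 0 higher and 1 lower, against 505 and 819 of the 15292 tested genes. A fit of only the 6 libraries compared gave 0 higher and 6 lower at that p, and none after adjustment. With limma-voom the unadjusted counts were 0 higher and 10 lower. After adjustment DESeq2 and limma-voom each called 0 higher and 1 lower, in both cases Mrps34. The median log2 fold change of the members was -0.17, against -0.01 over all tested genes, and 67 of 77 members had a negative value. Without SiaHi_PD1pos replicate 2 this median was 0.07, so its sign rested on that library. All SiaLo_PD1pos libraries were below all SiaHi_PD1pos libraries for 11 members (14.3%, against 9.95% of all tested genes), and above them for 0 (against 9.42%). The marker lists moved between these groups too. In SiaLo_PD1pos 9 of 17 dendritic, 3 of 8 B and plasma cell and 3 of 7 CD4 and regulatory T cell markers were called lower. All 14 melanoma markers had a positive value, and 4 were called higher. Of 10 T cell core genes, 14 macrophage and monocyte markers and 8 fibroblast and endothelial markers, 0 were called. The part of these lists was not tested.

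Mrps34 had the largest difference between the PD-1+ groups, at a log2 fold change of -0.88 ± 0.25 (unadjusted p = 0.00324, edgeR adjusted p = 0.131). Its adjusted p was 0.0309 with DESeq2 and 0.00588 with limma-voom, and between 0.0603 and 0.518 under the other settings tried. Without SiaHi_PD1pos replicate 2 the value was -0.69. The next smallest p among negative values were those of Mrps18a (-0.38 ± 0.18) and Mrps14 (-0.44 ± 0.21), for uS14m, with edgeR adjusted p = 0.607 and 0.629. Mrps14 stood at 50.3, 81.2 and 40.3 CPM in SiaHi_PD1pos and at 43.8, 42.0 and 41.3 in SiaLo_PD1pos, so the difference lay in replicates 1 and 2 of SiaHi_PD1pos. Toward higher values the smallest p were those of Mrps31 (0.15), Mrps23 (0.08) and Mrpl51 (0.08), all with an edgeR adjusted p of 0.9995.

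The 18 members called higher in both comparisons with SiaHi_PD1neg had log2 differences of SiaLo_PD1pos against SiaHi_PD1pos from -0.42 (Mrps6) to 0.05 (Mrpl33), with a median of -0.15 and 16 values below 0. They were chosen for being high in both groups, so this is a description. Mrpl4 had a mean of 69.3 ± 15.3 CPM (SD, n = 3) in SiaHi_PD1pos and 69.2 ± 3.28 in SiaLo_PD1pos, a log2 difference of 0.00 ± 0.19. Mrpl33 had 62.7 ± 12.9 and 64.8 ± 7.76, and Mrpl15 had means of 63.7 and 61.5. Mrps6 was at 28.3 ± 7.48 and 21.2 ± 3.56 (log2 -0.42 ± 0.25). A p that misses the threshold does not show that these levels are equal. Replicates agreed better in SiaLo_PD1pos, where the median coefficient of variation over members was 8.07%, than in SiaHi_PD1pos (22.4%) or SiaHi_PD1neg (19.3%). Over the 3 groups, 58 members had their lowest mean in SiaHi_PD1neg, an intermediate one in SiaLo_PD1pos and the highest in SiaHi_PD1pos. Without SiaHi_PD1pos replicate 2 this order held for 28 members, and 43 members had a higher mean in SiaLo_PD1pos than in SiaHi_PD1pos.

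Some genes for proteins of the mitochondrial ribosome carry other names. Of 5 such genes, 4 rose against SiaHi_PD1neg, namely Chchd1 (mS37, log2 0.70), Aurkaip1 (mS38, 0.77), Gadd45gip1 (mL64, 0.88) and Dap3 (mS29, a GTP-binding protein, 0.56). Against the same libraries none of the 5 was called in SiaLo_PD1pos. All-gene shares called higher were 21% in SiaHi_PD1pos and 20.5% in SiaLo_PD1pos. Dap3 was at 54.3, 35.2 and 51.5 CPM in SiaHi_PD1neg, 72.5, 73.4 and 61.7 in SiaHi_PD1pos and 48.8, 53.5 and 44.5 in SiaLo_PD1pos, and the difference between the PD-1+ groups did not pass (log2 -0.50 ± 0.18, edgeR adjusted p = 0.305).

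Of 28 genes for assembly of the mitochondrial ribosome, 5 rose in SiaHi_PD1pos (17.9%) and 4 in SiaLo_PD1pos (14.3%), shares below the 21% and 20.5% of all tested genes called higher, and none was called lower by edgeR. Noa1, a GTPase needed for the small subunit, had the smallest p, and rose from 11.4 mean CPM in SiaHi_PD1neg to 41.1 and 37.0 in the PD-1+ groups (log2 1.84 ± 0.23 and 1.69 ± 0.23, edgeR adjusted p = 3.25e-05 and 5.8e-05). The RNA helicases Ddx28 (log2 1.23 in SiaHi_PD1pos) and Dhx30 (0.54) were called in both. Of 16 translation factors, 4 rose in each (25%), near those background shares. Tufm, the elongation factor that brings aminoacyl-tRNA, stood at 44.1, 44.8 and 42.8 CPM in SiaHi_PD1neg, 90.4, 97.8 and 77.4 in SiaHi_PD1pos and 68.4, 61.5 and 67.1 in SiaLo_PD1pos. Its 3 groups did not overlap, and the difference between the PD-1+ groups did not pass (log2 -0.43 ± 0.14, edgeR adjusted p = 0.21). Of 22 tRNA synthetase genes, 5 and 4 rose (22.7% and 18.2%), also near the background, with the smallest adjusted p for Kars, which also serves the cytosol (log2 0.86 and 0.73).

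Of 20 genes for upkeep and transcription of mitochondrial DNA and processing of its RNA, 8 rose in SiaHi_PD1pos (40%, against 21% of all tested genes) and 4 in SiaLo_PD1pos (20%, near the background of 20.5%). Ssbp1, which binds single-stranded mitochondrial DNA, Hsd17b10 and Trmt10c, components of mitochondrial RNase P, and Pnpt1, an exoribonuclease, were called in both. Tfam, which packs and transcribes mitochondrial DNA, was called in SiaHi_PD1pos (log2 0.50 ± 0.17, edgeR adjusted p = 0.0342) and not in SiaLo_PD1pos (0.29, adjusted p = 0.207). By edgeR's test, none of these lists had a called gene between the PD-1+ groups, and all their directions against SiaHi_PD1neg are on the TMM scale. The 12 tested mRNAs of the mitochondrial genome, which this ribosome translates, went the other way: 11 and 10 of them fell in SiaHi_PD1pos and SiaLo_PD1pos. Their sum was 62520 to 98210 CPM in SiaHi_PD1neg, 19690 to 34610 in SiaHi_PD1pos and 30330 to 45620 in SiaLo_PD1pos.

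Among 12 transcription regulators linked to mitochondrial protein genes, 7 rose (58.3%) and 1 fell (8.33%) in each PD-1+ group against SiaHi_PD1neg. In SiaHi_PD1pos 21% of all tested genes were called higher and 19.2% lower, and in SiaLo_PD1pos 20.5% and 18.9%. Myc, a driver of growth and of ribosome production, stood at 53.1, 60.3 and 77.3 CPM in SiaHi_PD1neg, 161, 162 and 150.3 in SiaHi_PD1pos and 118, 112 and 112 in SiaLo_PD1pos. Its groups did not overlap (log2 1.31 ± 0.14 and 0.84 ± 0.14, edgeR adjusted p = 1.09e-05 and 0.000409), and the difference between the PD-1+ groups did not pass (log2 -0.47 ± 0.14, adjusted p = 0.175). Gabpa, for the DNA-binding subunit of GABP, rose by 0.56 and 0.66, and Nrf1 by 0.52 and 0.62, on the log2 scale. Ppargc1a, a coactivator of mitochondrial biogenesis, fell from a mean of 22.8 CPM to 2.98 and 8.11 (log2 -2.93 and -1.49). The melanoma marker sum fell in the same order, from a mean of 7602 CPM to 1077 and 2765. The part of tumor RNA in the fall of Ppargc1a was not tested.

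Other ribosome and mitochondrial genes give the scale. Against SiaHi_PD1neg, 64 of 82 tested genes of the cytosolic ribosome rose in SiaHi_PD1pos and 36 in SiaLo_PD1pos, with medians of 0.64 and 0.43, while 1 and 2 fell. Of 80 tested nuclear genes for subunits of oxidative phosphorylation, 20 and 8 rose, with medians of 0.26 and 0.21, and 1 fell in each. Their shares of 25% and 10% compare with 21% and 20.5% of all tested genes called higher. The members, at 30 and 19 of 77 with medians of 0.49 and 0.34, lay between them on the TMM scale; these differences between lists were not tested. By edgeR's test, none of the 3 lists had a called gene between the PD-1+ groups, while DESeq2 and limma-voom called Mrps34 among the members.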

How the data were processed

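RNA-seq libraries of 3 sorted groups (n = 3 each) were read from the table of raw counts per gene that the authors deposited. Per the submitters' processing notes, Trim Galore 0.6.5, STAR 2.7.6a and featureCounts 1.6.3 were used with GRCm38; these notes name no strand or multi-mapping setting. Gene starts and ends in the table differ from GRCm38 for 76 of 77 members, so positions are printed only for RefSeq promoters. The exon length column deposited by the authors (unit: bases) served for levels per kilobase and for length-trend offsets. Lengths of mRNAs were medians over a gene's protein-coding transcripts in GENCODE vM21. Counts were fitted with edgeR 4.0.16 (R 4.3.3): filterByExpr left 15292 genes, TMM factors were 0.928 to 1.05, and all 9 libraries entered 1 robust quasi-likelihood fit with 6 residual degrees of freedom and no replicate block. Tests were adjusted over all tested genes and called at 0.05. The procedure was tested on simulated data.

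Members and lists were chosen with earlier results of these data known. Named members are, per comparison, up to 8 called members with the highest and the lowest change, or the 3 with the smallest p where fewer than 3 were called in a direction; further, the 5 highest and lowest per kilobase of exon, the Mrps18 paralogues, called members against the main direction, the gene outside the count rule, and of each related list up to 3 called genes plus Myc, Nrf1, Gabpa, Tfam and Tufm; others were named after their values were seen. Alternatives were DESeq2 1.42.0, limma 3.58.1 (voom with quality weights), other scalings and filters, 6-library fits, a replicate block and leaving out each library; scaling to the member sum, length-trend offsets, leaving out 2 libraries together and the order of group means without 1 library were chosen after seeing the data. Replicates of a group differed by more than sampling noise. That spread limits the precision of single-library values beyond counting, with a median coefficient of variation over members of 8.07% to 22.4% within groups. The smallest member count was 54.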

Additional observations from a re-analysis of the deposited data

How the results depend on the processing

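The members called higher and lower in SiaHi_PD1pos against SiaHi_PD1neg (30 and 0) became 0 and 76 when scaled to T cell core genes, 1 and 3 when scaled to the member sum, 16 and 1 without SiaHi_PD1neg replicate 3 and SiaHi_PD1pos replicate 2 together, and 18 and 0 with the 6 libraries compared. In the same order, the shares of all tested genes were 1.86% and 80.5%, 7.66% and 27.5%, 22.7% and 17.6%, and 16.3% and 17%. Those of SiaLo_PD1pos (19 and 1) became 0 and 77 with T cell core genes, 1 and 3 with the member sum, 22 and 0 with no low-count filter and 13 and 2 with the stricter filter (5 CPM in 3 libraries). Here the all-gene shares were 1.84% and 81.9%, 9.3% and 23.6%, 12.9% and 10.1%, and 21.7% and 25.5%. Between the PD-1+ groups DESeq2 and limma-voom each called 1 lower. Leaving out 1 library gave 17 (without SiaHi_PD1pos replicate 2) to 40 higher (without SiaHi_PD1pos replicate 3) and 0 lower in the first comparison. In these fits 20% and 19% of all tested genes were called higher. The second comparison had 8 to 24 higher and 0 to 2 lower. All-gene shares called higher were 15.4% where 8 members were called and 22.5% where 24 were. Without SiaHi_PD1neg replicate 1 Mrpl38 joined Mrps34 as called lower. Scaling to T cell core genes turned the sign of these log2 values in SiaHi_PD1pos: Mrps6 -0.56, Mrps22 -0.79, Mrpl57 -0.97, Mrpl9 -0.95, Mrpl40 -0.99, Mrpl4 -1.01, Mrpl18 -1.02 and Mrpl35 -1.03. In SiaLo_PD1pos it turned Mrps6 (-1.05), Mrpl4 (-1.10), Mrps22 (-1.10), Mrpl15 (-1.22), Mrps27 (-1.24), Mrpl33 (-1.24), Mrpl40 (-1.23) and Mrpl57 (-1.25). This scaling moved the median of all tested genes by the amounts given above; the cause was not tested.

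The labels do not say that a number marks a shared animal or batch, so the numbers were not taken as pairs. Deviations from the group means correlated at -0.008 to 0.1 between same-numbered libraries. Between libraries of different numbers and groups they correlated at -0.129 to 0.0575. With the replicate block 34 and 20 members were called higher, 0 and 1 lower, and none between the PD-1+ groups. That fit called 21.6% and 21.4% of all tested genes higher against SiaHi_PD1neg. DESeq2 size factors (25 and 17 higher), no composition scaling (28 and 19), length-trend offsets (37 and 25), DESeq2 (27 and 18) and limma-voom (23 and 19) kept the counts within 1.5 times.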
